A study of Mus musculus with 18 samples.

Results

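The PGC-1 coactivators, their nuclear receptor partners and the factors that carry their effect to mitochondria were followed in mouse skeletal muscle after clenbuterol, a β2-adrenergic receptor agonist. The 9 genes were Ppargc1a, Ppargc1b, Esrra, Esrrg, Nrf1, Tfam, Ppara, Ppard and Nrip1. All probesets that the annotation of the Affymetrix MOE430A and MOE430B chips gives to 1 of these genes were taken. This rule found 28 probesets of 9 genes, out of 45037 probesets and 18193 named genes on both chips. Of the 28, 26 reached the brightness needed for testing, and every gene kept at least 1 tested probeset. There was 1 more probeset listed for Ppard together with another gene, and it was left out.

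The muscle was the gracilis of C57BL/6J male mice aged 3 to 5 wk, a muscle of mixed fiber type. All mice received 10 daily injections and the muscle was collected 24 h after the last injection. The control mice (C) received vehicle each time, the 24 h mice received vehicle 9 times and then clenbuterol once at 1 mg/kg, and the 10 D mice received clenbuterol at that dose on all 10 days. Each group was measured as 3 pools of RNA from 3 mice, so 27 mice gave 9 pools and 18 arrays. The pooled mice had been picked from more animals as those in which blood urea nitrogen and body weight responded most, and treatments were given by cage. The pools thus stand for selected animals. The p-values set differences between group means against the spread among pools of a group, not among single mice. In whole muscle, fewer cells of a type and less RNA per cell cannot be told apart.

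A level below is the MAS 5.0 signal of a probeset over the middle signal of the same array, so a level of 1 is the middle probeset of that chip. Probesets differ in how strongly they bind their target, so the level of a probeset is not read as higher or lower than that of another. Where levels are combined over probesets, only the change of the combined value between groups is read. Changes are log2 differences between group means, given with their SE, and a probeset was called when its limma p, adjusted over all 33752 tested probesets of both chips (Benjamini-Hochberg), was under 0.1.

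PGC-1α, the product of Ppargc1a, does not bind DNA itself. It docks on transcription factors such as the estrogen-related receptors, the peroxisome proliferator-activated receptors (PPARs) and nuclear respiratory factor 1 (NRF-1), and recruits enzymes that open chromatin and start transcription. In muscle it is known as a fast-responding gene, induced by exercise and by adrenergic signaling through cyclic AMP, and it raises the transcription of genes for respiration and fatty acid oxidation. NRF-1 in turn acts on Tfam, whose protein enters mitochondria to package and transcribe mitochondrial DNA, and Nrip1 encodes RIP140, a corepressor that opposes the coactivators on many of the same genes.

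The best known adrenergic route to Ppargc1a runs through the cyclic AMP response element, which the factor CREB binds, and the route to Tfam includes sites for nuclear respiratory factors. RefSeq windows of 300 bases around annotated gene starts (250 before and 50 after, build GRCm38.p6) were on hand for 8 of the 9 genes, as 13 windows. A window of Ppargc1a is shown whole, and 1 site each of Tfam, Esrra and Ppara, since the RNA of the same genes is reported below, and other matches are not printed. For Esrra and Ppara the site is a match of letters only. The Ppargc1a window is chr5:51567676-51567975 on the minus strand. Its capitals mark CGTCA, which is TGACG, the core letters of the cyclic AMP response element, read on the other strand, with its first base at -49 from the annotated start. The other windows are cut to the site and its surroundings. In Tfam, chr10:71238055-71238121 on the minus strand, the capitals mark CCGGAAG, a core bound by GA-binding protein (also called NRF-2). In Esrra, chr19:6921805-6921872 on the minus strand, they mark GCATGCGC, the core bound by NRF-1. In Ppara, chr15:85735715-85735782 on the plus strand, they mark that core on both strands, overlapping.
Ppargc1a: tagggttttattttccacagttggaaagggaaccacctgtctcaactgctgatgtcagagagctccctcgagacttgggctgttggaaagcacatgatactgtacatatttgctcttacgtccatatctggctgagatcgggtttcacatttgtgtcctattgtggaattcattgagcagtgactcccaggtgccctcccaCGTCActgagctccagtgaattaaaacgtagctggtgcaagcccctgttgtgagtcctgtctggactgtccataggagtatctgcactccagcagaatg
Tfam: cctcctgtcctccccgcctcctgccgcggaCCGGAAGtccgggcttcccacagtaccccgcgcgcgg
Esrra: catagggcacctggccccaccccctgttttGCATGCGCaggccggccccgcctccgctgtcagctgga
Ppara: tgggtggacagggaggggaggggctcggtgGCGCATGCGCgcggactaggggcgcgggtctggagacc

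Such letters are common. On either strand, TGACG was held by 20.8% of all 32851 windows in the same table, CCGGAAG by 8.86% and GCATGCGC by 2.71%. Among the 13 windows of these genes, 3 held TGACG (Ppargc1a, Ppara and Ppard), 1 held CCGGAAG and 2 held GCATGCGC. The full element TGACGTCA, held by 1.79% of all windows, and AAGGTCA, the core bound by the estrogen-related receptors, held by 4.72%, were in none of the 13. The arrays measured RNA only, so a match describes the window and says nothing of binding in these muscles.

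Median array signals ran from 30.8 to 88.4 on MOE430A and from 13.2 to 37.1 on MOE430B, and no scan day or batch was given in the sources used here. Within each treated group and on both chips, pool 2 correlated less with the other pools than they did with each other, with r of 0.876 to 0.908 against 0.931 to 0.938 on MOE430A and 0.825 to 0.832 against 0.872 to 0.875 on MOE430B. Results that change without these pools are given with and without them. Over all tested probesets, 0.216% were called by the F test across the 3 groups, 0.456% between 24 h and C, 0% between 10 D and C and 0.0504% between 10 D and 24 h.

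Among the 26 tested probesets of the 9 genes, 2 were called between 24 h and C, both of Ppargc1a and both higher, where 0.329% of all probesets were called higher. Both rose to more than double their level, and at 10 D both lay between C and 24 h in mean. No probeset of these genes was called between 10 D and C, between 10 D and 24 h, or by the F test. Those 3 counts of 0 were also given by the analysis of variance of the study's methods, run on the same values. That run kept the brightness filter used here and adjusted each contrast. The study filtered by detection calls, set its FDR on the F test and assessed contrasts qualitatively, so its own calls can differ. Without adjustment, limma p was under 0.05 for 4 of the 26 by the F test (6.62% of all probesets), 4 between 24 h and C (8.55%), 1 between 10 D and C (4.56%) and 4 between 10 D and 24 h (5.48%).

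Ppargc1a has 5 probesets, all on MOE430A, and each is described apart. Probeset 1434100_x_at measured 1.67, 2.44 and 2.64 in the C pools, 5.90, 5.59 and 7.56 in the 24 h pools and 4.65, 3.05 and 3.12 in the 10 D pools. Its groups were fully separated, with every 24 h pool above every 10 D pool and every 10 D pool above every C pool. It rose 2.85-fold at 24 h (log2 change 1.51 ± 0.26, SE, adjusted p = 0.0679). At 10 D the log2 difference from C was 0.68 ± 0.26 (unadjusted p = 0.0273), which did not pass after adjustment (adjusted p = 1.00). From 24 h to 10 D the log2 difference, -0.83 ± 0.26, did not pass either (adjusted p = 0.679). An exact permutation test of the F statistic over the 9 pools gave p = 0.0036, the smallest that 3 groups of 3 allow.

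Probeset 1434099_at measured 1.87, 2.87 and 1.91 in the C pools, 4.20, 7.61 and 6.57 in the 24 h pools and 2.59, 2.69 and 3.12 in the 10 D pools. All 24 h pools were above all others, while the C and 10 D pools overlapped. The rise at 24 h was 2.73-fold (log2 change 1.45 ± 0.28, adjusted p = 0.0861). At 10 D the log2 difference was 0.36 ± 0.28 from C (adjusted p = 1.00) and -1.09 ± 0.28 from 24 h (unadjusted p = 0.00258, adjusted p = 0.450). The exact permutation test of F gave p = 0.0107. In mean level both probesets ran in the order 24 h, 10 D, C. Only the step from the 24 h level to C passed the test. The neighbouring steps did not.

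These called probesets were designed from the same source sequence, and the 5 probesets from 4, so the 2 calls are not independent readings of the gene. The ending _x_at marks a probeset with some probes that can also bind other transcripts. Across the 9 pools their log2 levels had a Pearson r of 0.84, a description over arrays that both share.

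The other 3 probesets of Ppargc1a did not pass. Probeset 1460336_at, the brightest of the gene, measured 6.69, 4.74 and 3.68 in C, 3.48, 3.49 and 4.87 in 24 h, and 6.76, 2.57 and 2.21 in 10 D. Its 3 groups overlapped, and its widest spread was at 10 D, where pool 1 was far above the other 2. The log2 difference was -0.33 ± 0.41 at 24 h (adjusted p = 0.879) and -0.53 ± 0.41 at 10 D (adjusted p = 1.00).

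Probeset 1456395_at measured 2.89, 3.49 and 2.96 in C, 3.92, 4.78 and 3.35 in 24 h, and 2.94, 3.23 and 3.71 in 10 D. Of the 24 h pools, 2 were above every C pool and pool 3 was not. The log2 difference at 24 h was 0.36 ± 0.22 (adjusted p = 0.705). Probeset 1437751_at measured 2.06, 2.76 and 1.88 in C, 3.01, 1.94 and 3.59 in 24 h, and 3.63, 1.63 and 2.71 in 10 D, with all groups overlapping. Its log2 difference at 24 h was 0.33 ± 0.34 (adjusted p = 0.854).

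**Figure D1:**
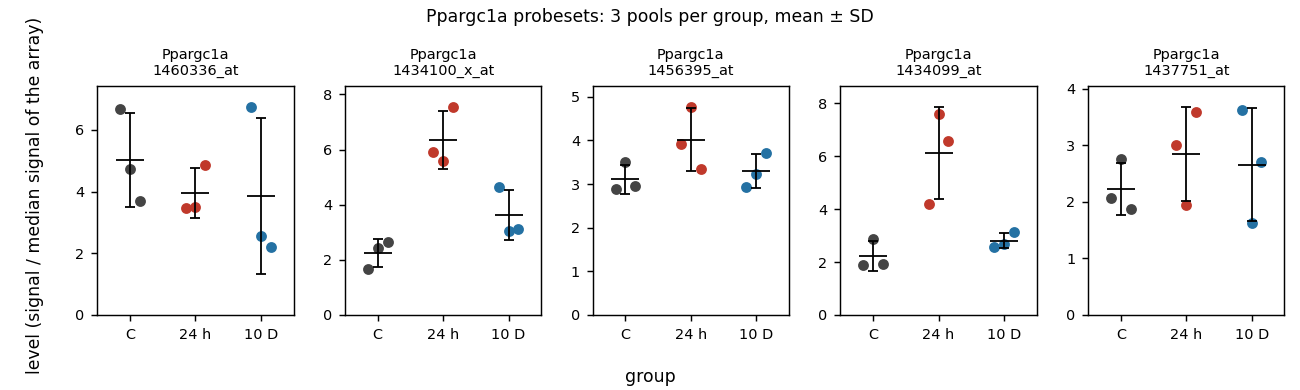
Levels of the 5 Ppargc1a probesets (vertical axis, signal divided by the array median, starting at 0) in the C, 24 h and 10 D groups. Points are pools of 3 mice and bars are the mean ± SD of 3 pools. In 1434100_x_at and 1434099_at all 24 h pools sit above all others, at 5.59 to 7.56 and at 4.20 to 7.61, while in the other 3 panels the groups overlap.

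Since all 5 probesets are read on the same array, the called pair can be set against the other 3 without any scaling between arrays. The mean log2 level of the pair minus that of the other 3 was -0.95, -0.44 and -0.28 in the C pools. In the 24 h pools it was 0.53, 1.03 and 0.86, and in the 10 D pools it was -0.26, 0.26 and 0.15. The 24 h pools were above all others and the 10 D pools above all C pools. The group means were -0.56 ± 0.35 (SD, n = 3) in C, 0.81 ± 0.25 in 24 h and 0.05 ± 0.28 in 10 D. The pair was picked for its call at 24 h, a choice that favours a higher difference from the other 3 there. The call was made against C, so the choice also favours low values in C, and with them 10 D pools above C pools. This is a description of the arrays. Whether the probesets of the gene differ in their change was not tested, and 2 of the other 3 also had log2 differences above 0 at 24 h, as given above.

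**Figure D2:**
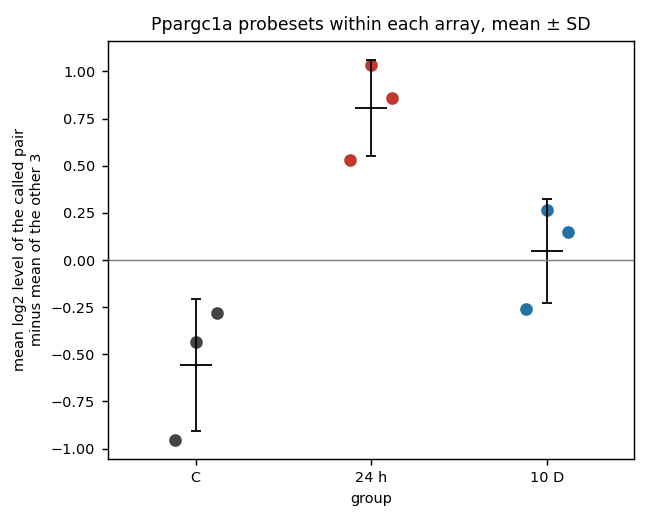
Mean log2 level of the 2 called Ppargc1a probesets minus the mean log2 level of the other 3, computed within each MOE430A array (vertical axis), by group. Points are single pools and bars are the mean ± SD of 3 pools. The 24 h pools lie between 0.53 and 1.03, the 10 D pools between -0.26 and 0.26 and the C pools between -0.95 and -0.28.

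The calls were narrow. Neither was made by the methods' analysis of variance, under the filter and adjustment used here (adjusted p = 0.169 for 1434100_x_at and 0.197 for 1434099_at). Limma with no intensity trend made neither (0.146 and 0.160), and 1434099_at also lost its call with quantile normalization (0.127). Leaving out 1 pool at a time kept the call of 1434100_x_at only without 10 D pool 1 or without 10 D pool 2, with adjusted p of 0.0389 to 0.292 over the 9 fits. For 1434099_at the call was kept without 24 h pool 1, 10 D pool 1 or 10 D pool 2, with adjusted p of 0.0595 to 0.352. In all these fits the log2 change at 24 h stayed between 1.31 and 1.64 for 1434100_x_at and between 1.27 and 1.70 for 1434099_at.

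Ppargc1b encodes PGC-1β, the related coactivator, which shares many partners with PGC-1α. Its probeset 1449945_at measured 6.79, 7.62 and 7.16 in C, 5.02, 6.48 and 5.67 in 24 h, and 5.79, 8.71 and 6.84 in 10 D. All 24 h pools were below all C pools, and the 10 D pools spanned both groups. The log2 difference at 24 h was -0.34 ± 0.22 and did not pass (adjusted p = 0.727). At 10 D it was -0.03 ± 0.22 (adjusted p = 1.00). The 24 h level of this probeset and those of the called Ppargc1a pair thus lay on opposite sides of their C levels, but only the Ppargc1a pair passed the test. Ppargc1a 1460336_at lay on the same side as Ppargc1b (log2 difference -0.33 ± 0.41). Its probesets 1456395_at (0.36) and 1437751_at (0.33) lay on the other side, and none of these passed. A difference between the 2 coactivators was not tested.

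The estrogen-related receptors bind DNA next to genes of respiration and are the partners through which PGC-1α reaches many of them. Esrra encodes ERRα. Its probeset 1460652_at measured 4.71, 5.12 and 5.04 in C, 8.79, 6.67 and 1.78 in 24 h, and 3.47, 4.83 and 5.33 in 10 D. The C pools lay close together, whereas the 24 h pools held both the highest and the lowest level of all. The log2 difference was -0.07 ± 0.49 at 24 h (adjusted p = 0.981) and -0.15 ± 0.49 at 10 D (adjusted p = 1.00). Probeset 1442864_at ranged from 1.06 to 3.60 with all groups overlapping, and its log2 difference at 24 h was -0.37 ± 0.45 (adjusted p = 0.876).

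Esrrg encodes ERRγ, which is abundant in oxidative muscle. Its probeset 1455267_at measured 4.83, 5.29 and 6.82 in C, 2.16, 2.43 and 2.66 in 24 h, and 7.09, 2.15 and 7.07 in 10 D. Every 24 h pool was below every C pool and the 24 h pools were close together, while at 10 D pool 2 was as low as the 24 h pools and pools 1 and 3 were above every C pool. The log2 difference at 24 h was -1.21 ± 0.39, with an unadjusted p of 0.00999, and did not pass (adjusted p = 0.357). From 24 h to 10 D the log2 difference was 0.98 ± 0.39 (adjusted p = 0.850).

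For this probeset, the call depended on the fit. The fall at 24 h passed with array weights (adjusted p = 0.0901) and with only the C and 24 h groups in the fit (0.0528). Without 10 D pool 2, it passed too (log2 change -1.21, adjusted p = 0.0276), as did the rise from 24 h to 10 D (1.56, adjusted p = 0.0349). Without pool 2 of both treated groups the adjusted p was 0.034 for 24 h against C and 0.0378 for 10 D against 24 h. The C and 24 h values are the same in the fits without 10 D pool 2 and with only 2 groups. The estimate of the spread differs, and so do the p-values of the other probesets that enter the adjustment. The other Esrrg probesets did not follow. Probeset 1421747_at measured 1.57, 1.99 and 1.71 in C and 1.12, 3.39 and 2.81 in 24 h (log2 difference 0.34 ± 0.39, adjusted p = 0.871). Probeset 1457896_at stayed between 1.61 and 2.49 in all 9 pools (-0.06 ± 0.26, adjusted p = 0.968).

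The PPARs are fatty acid receptors that turn on genes of fat oxidation, and PGC-1α was first known as a partner of this family. None of the tested probesets of Ppara or Ppard passed. Ppard probeset 1439797_at measured 4.47, 3.58 and 3.10 in C, 8.08, 2.92 and 6.51 in 24 h, and 2.61, 2.89 and 4.67 in 10 D. In 24 h, pools 1 and 3 were above every other pool and pool 2 was below every C pool. The log2 difference at 24 h was 0.54 ± 0.36 (adjusted p = 0.738).

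Ppara probeset 1457721_at measured 3.26, 3.20 and 2.25 in C, 1.79, 2.00 and 2.66 in 24 h, and 2.23, 0.973 and 2.78 in 10 D. Its log2 difference was -0.43 ± 0.37 at 24 h (adjusted p = 0.819) and -0.65 ± 0.37 at 10 D (adjusted p = 1.00). The groups overlapped at both times. Probeset 1439675_at was set apart by 10 D pool 2, at 0.101 against 1.45 to 2.61 in the other 8 pools. Probeset 1449051_at was dim, from 0.106 to 1.04, with a log2 difference of -1.47 ± 0.86 at 24 h (adjusted p = 0.693). The second Ppard probeset, 1425703_at, was too dim to test, at 0.0283 to 0.0863.

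NRF-1 is the DNA-binding factor that PGC-1α uses to raise nuclear genes of the respiratory chain, and Tfam is a target of it. Tfam probeset 1448224_at measured 3.85, 3.87 and 4.18 in C, 5.24, 3.20 and 5.57 in 24 h, and 6.24, 2.89 and 4.36 in 10 D. The C pools agreed closely, and in both treated groups pool 2 was below all C pools. The log2 difference was 0.19 ± 0.31 at 24 h (adjusted p = 0.911) and 0.11 ± 0.31 at 10 D (adjusted p = 1.00). Probeset 1456215_at of Tfam measured 2.82 to 2.99 in C, 2.30 to 3.23 in 24 h and 1.93 to 3.76 in 10 D, with a log2 difference of -0.01 ± 0.27 at 24 h (adjusted p = 0.998).

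Nrf1 had 3 tested probesets and none passed. The log2 differences at 24 h were 0.12 ± 0.28 for 1434627_at, 0.01 ± 0.28 for 1445914_at and -0.39 ± 0.39 for 1424787_a_at (adjusted p = 0.945, 0.997 and 0.846). The probesets of this gene did not run together from pool to pool. Over the 9 pools, 1434627_at and 1445914_at had a Pearson r of 0.81, while 1424787_a_at ran against both, with r of -0.90 and -0.81. In 24 h pool 2, for example, the levels were 1.92 and 4.67, the highest of their probesets, against 0.569, the lowest of 1424787_a_at.

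A further Nrf1 probeset, 1420978_at, was below the brightness needed for the test. It measured 0.149, 0.232 and 0.185 in C, 0.113, 0.137 and 0.153 in 24 h, and 0.0803, 0.0833 and 0.0987 in 10 D. Every 10 D pool was below every other pool. Its raw signals were 2.8 to 15.1, and when it was tested together with all dim probesets it did not pass (10 D against C, log2 difference -1.09 ± 0.46, adjusted p = 1.00).

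Nrip1 had 6 tested probesets and none passed. Probeset 1454295_at measured 3.97, 1.93 and 1.85 in C, 0.357, 1.01 and 1.43 in 24 h, and 2.83, 2.80 and 1.54 in 10 D. All 24 h pools were below all pools of the other groups. The log2 difference was -1.59 ± 0.51 at 24 h (unadjusted p = 0.00901, adjusted p = 0.344) and 1.52 ± 0.51 from 24 h to 10 D (adjusted p = 0.708). Probeset 1449089_at measured 5.10, 5.06 and 4.46 in C, 4.23, 2.88 and 3.45 in 24 h, and 4.47, 2.74 and 3.75 in 10 D. Here too the 24 h pools were below all C pools, by a log2 difference of -0.48 ± 0.24 (adjusted p = 0.637).

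The remaining Nrip1 probesets overlapped between all groups. Probeset 1434384_at, the brightest of the gene on MOE430B, measured 10.8, 9.42 and 11.8 in C, 13.2, 10.0 and 12.8 in 24 h, and 20.1, 5.76 and 15.6 in 10 D. It shows the spread of the 10 D pools, with the highest and the lowest level both in that group. Probesets 1418469_at, 1432603_at and 1447211_at had log2 differences at 24 h of 0.02, 0.64 and -0.11, with adjusted p of 0.762 to 0.991.

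**Figure D3:**
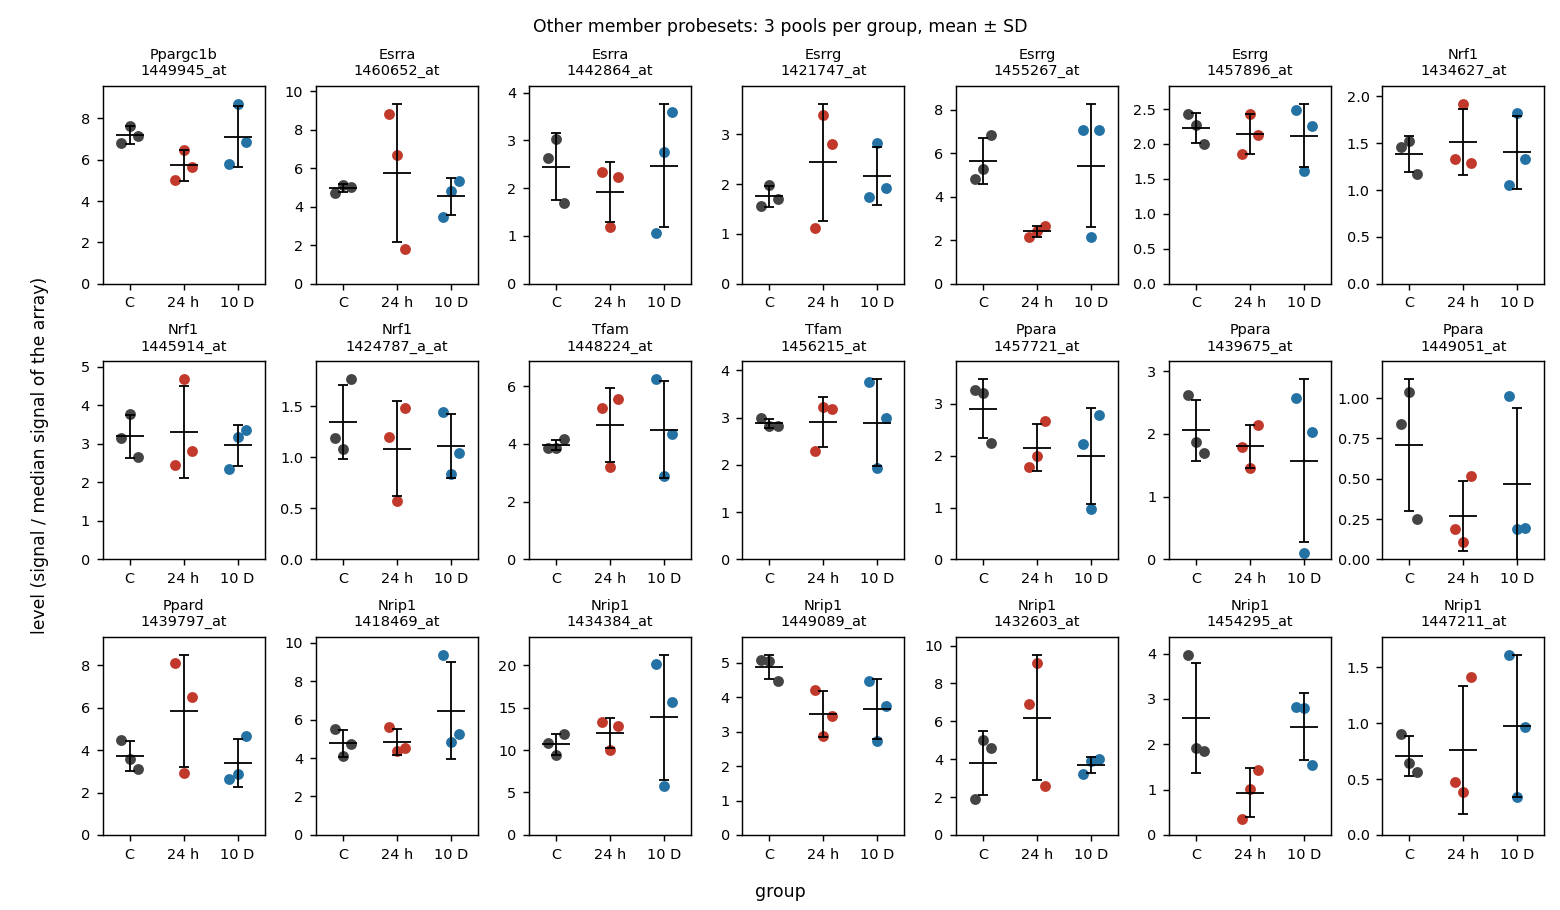
Levels of the 21 tested probesets of the other 8 genes (vertical axes, signal divided by the array median, starting at 0) in C, 24 h and 10 D. Points are pools of 3 mice and bars are the mean ± SD of 3 pools, cut at 0 in 1 panel. Esrrg 1455267_at and Nrip1 1454295_at have all 24 h pools below all C pools, at 2.16 to 2.66 against 4.83 to 6.82 and at 0.357 to 1.43 against 1.85 to 3.97.

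Across the 26 tested probesets, the 24 h pools were all above the C pools in 2, the Ppargc1a pair (9.60% of all probesets), and all below them in 4 (7.23%), Ppargc1b 1449945_at, Esrrg 1455267_at and Nrip1 1449089_at and 1454295_at. The 10 D pools were all above the C pools in 1, Ppargc1a 1434100_x_at (5.76%), and all below in 0 (4.52%). Between the times, the 10 D pools were all above the 24 h pools in 1, Nrip1 1454295_at (4.17%), and all below in 2, the Ppargc1a pair (5.10%). Beside these shares, 26 probesets are few, and none of the counts is read as particular to these genes. The median log2 difference of the 26 probesets was -0.03 at 24 h and -0.06 at 10 D, against 0.02 and 0.01 over all tested probesets. Both times are set against the same C pools.

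**Figure D4:**
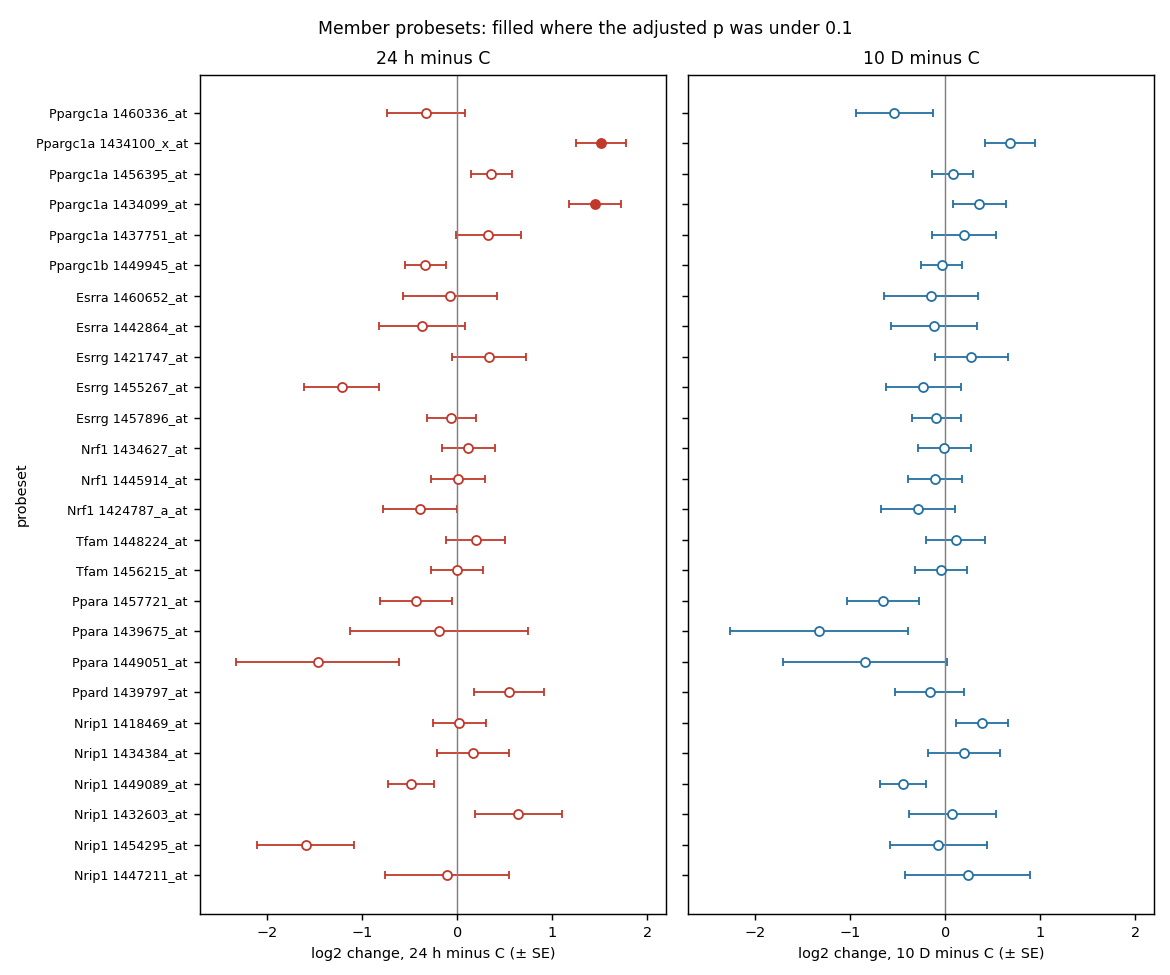
Log2 change of each of the 26 tested probesets (horizontal axis, ± SE of the fit) at 24 h (left) and at 10 D (right), each against C. Filled points had an adjusted p under 0.1. The only filled points are Ppargc1a 1434100_x_at and 1434099_at at 24 h, at 1.51 and 1.45.

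The genes around the coactivators were read from 9 lists, with the brightest tested probeset of each gene, 133 genes in all. None of the 133 was called at 24 h, where 0.705% of 15184 genes were called, nor at 10 D against C (0%) or against 24 h (0.0856%). The methods' analysis of variance called 1 of them at 24 h, Prmt1, and 0 in the other comparisons. The lists include the 9 genes themselves, and there Ppargc1a stands as 1460336_at, which was not called. Other probesets of a listed gene can differ. The study called Yy1, higher at both times, from a probeset other than the 1 read here. At a looser threshold it listed Mef2c, from another probeset, and Map2k6, from the same probeset, both lower at 24 h. Without adjustment, 8 of the 133 were higher at 24 h with p under 0.05 (6.02%, against 5.99% of all genes) and 7 were lower (5.26%, against 3.54%).

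Among the nuclear receptor partners, 3 of 12 tested genes had an unadjusted p under 0.05 at 24 h, all lower (3.54% of all genes). The list median was -0.13 (all genes 0.04). With so few genes in a list, such counts are not read as particular to it. Rxra, the common partner with which PPARs pair on DNA, measured 6.67, 6.02 and 5.02 in C and 3.47, 2.15 and 4.05 in 24 h (log2 difference -0.91, adjusted p = 0.420). Rxrg, a related receptor abundant in muscle, had a log2 difference of -0.56 (adjusted p = 0.571), and Thrb, a thyroid hormone receptor, of -0.88 (adjusted p = 0.490). All 3 had their 24 h pools below their C pools.

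Of the proteins that work with PGC-1α as coactivator partners, 9 were tested. Prmt1, an arginine methyltransferase that modifies the coactivator, came closest to a call of all list genes at 24 h. It measured 9.14, 8.24 and 7.78 in C, 15.1, 15.3 and 15.9 in 24 h, and 11.1, 10.4 and 9.82 in 10 D. Its groups were fully separated in the order 24 h, 10 D, C, the order of Ppargc1a 1434100_x_at, with a log2 difference of 0.88 at 24 h (adjusted p = 0.105). It was called in the methods' analysis of variance (adjusted p = 0.0531), with each chip adjusted alone (0.0715) and without 10 D pool 2 (0.0649). It was not called with any alternative scaling, or when any single C or 24 h pool was left out. Carm1, another arginine methyltransferase, had a log2 difference of -0.65 (adjusted p = 0.471).

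The list of upstream kinases and CREB coactivators held 19 tested genes. Map2k6, a kinase that activates p38, which phosphorylates PGC-1α, measured 5.02, 4.54 and 4.57 in C, 1.57, 1.66 and 2.28 in 24 h, and 7.40, 2.80 and 3.88 in 10 D. The 24 h pools were the lowest of all, with a log2 difference of -1.37 from C (adjusted p = 0.185). It was called with quantile normalization (-1.42, adjusted p = 0.0838) and without 10 D pool 2 (adjusted p = 0.0651). It was not called by the methods' analysis of variance or with no intensity trend. Prkab1, a subunit of the AMP-activated kinase, had a log2 difference of 0.61 (adjusted p = 0.493).

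In the machinery that copies and transcribes mitochondrial DNA, 4 of 16 tested genes had an unadjusted p under 0.05 at 24 h. All 4 were higher (5.99% of all genes), and the list median was 0.06 (all genes 0.04). They were Twnk, the helicase (log2 difference 0.75), Mterf3, a regulator of mitochondrial transcription (0.68), Ssbp1, the single-strand binding protein (0.82), and Polrmt, the RNA polymerase (0.91), with adjusted p of 0.433 to 0.496. Of the alternatives fitted to all 3 groups, Twnk was called only without 10 D pool 2 (adjusted p = 0.0839). The 24 h and C pools of Ssbp1 overlapped. Tfam, the partner of Polrmt at mitochondrial promoters, was not among these 4 genes.

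The oxidative targets of PGC-1α held 33 tested genes, with a list median of -0.08 at 24 h and -0.28 at 10 D (all genes 0.04 and 0.03). The genes with the smallest p at 24 h went both ways. Cidea, a lipid droplet protein, had a log2 difference of 2.68 (adjusted p = 0.272) from levels of 0.104, 1.34 and 0.178 in C to 2.38, 1.60 and 1.71 in 24 h. Of the alternatives fitted to all 3 groups, it was called only without C pool 2, the highest C pool (3.78, adjusted p = 0.0167). Its lowest raw signal, in C pool 1, was 3.2, where testing on MOE430A needed a mean of 14.1. The size of both changes thus leans on dim C signals. Cox6a2, the muscle form of a subunit of cytochrome c oxidase, had -0.75 (adjusted p = 0.408) and Lpl, lipoprotein lipase, -0.47 (adjusted p = 0.537). Among the 3 coactivators as listed (-0.33), Ppargc1a stands as 1460336_at and not as its called pair, and no listed probeset had an unadjusted p under 0.05 at 24 h. The DNA-binding factors (15 tested, list median 0.03) held no gene whose brightest probeset had an unadjusted p under 0.05 at 24 h. Nor did the genes of mitochondrial fusion, fission and import (18 tested, 0.14). In the list of corepressors and acetylation control (8 tested, 0.15) the 1 such gene was Mybbp1a, a nucleolar repressor of PGC-1α (0.85, adjusted p = 0.434).

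**Figure D5:**
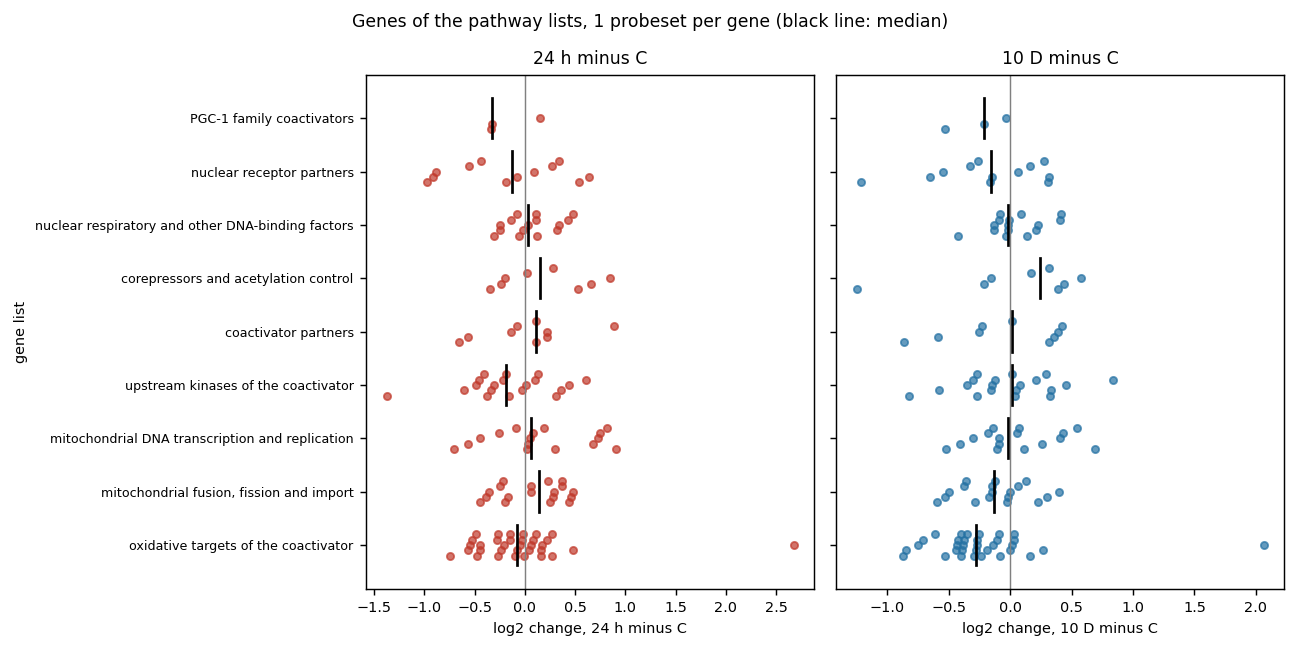
Log2 change against C of the genes in 9 pathway lists, 1 probeset per gene (horizontal axis), at 24 h (left) and 10 D (right). Points are genes and black lines are list medians, which lie between -0.33 and 0.15 at 24 h and between -0.28 and 0.24 at 10 D. The point farthest right in both panels is Cidea, at 2.68 and 2.07, and no gene shown was called in this fit.

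The tissue label was borne out by the fiber markers. All 12 of 12 were tested, none was called, and their summed level was 1961 to 3053 in C, 1641 to 2361 in 24 h and 1401 to 2583 in 10 D. Ppargc1a is also expressed in brown fat, in vessels and in other cells, so their markers stand beside its rise. The summed level of the adipocyte markers (7 of 10 tested) was 108 to 157 in C, 101 to 154 in 24 h and 101 to 123 in 10 D. Fabp4 made up most of this sum. The median log2 difference of the 7 genes was -0.50 at 24 h and -0.63 at 10 D (all genes 0.04 and 0.03), and Cidec (-1.49, unadjusted p = 0.0193) and Lipe (-0.63, unadjusted p = 0.0354) had an unadjusted p under 0.05 at 10 D. Ucp1, the defining gene of brown fat, measured 0.179, 1.77 and 0.0981 in C and 0.681, 0.146 and 0.110 in 24 h. For the endothelial markers (6 of 6) the sum was 18.9 to 22.4, 22.1 to 27.8 and 16.3 to 20.5 in the same order of groups. Emcn, an endothelial surface protein, measured 1.54, 1.98 and 1.48 in C and 3.14, 2.96 and 2.81 in 24 h, all above C (log2 difference 0.84, unadjusted p = 0.00446, adjusted p = 0.264). Kdr, a receptor for vascular growth factor, had log2 differences of 0.15 at 24 h and -0.73 at 10 D (unadjusted p = 0.484 and 0.00539). Leukocyte markers (4 of 8) summed to 12.1 to 16.6, 13.3 to 17.7 and 13.5 to 18.4, with Cd68 at 0.85 and Ptprc at -0.99 on the log2 scale at 24 h (unadjusted p = 0.0104 and 0.0251). Fibroblast markers (6 of 6) gave 144 to 265, 116 to 206 and 145 to 167, and nerve markers (3 of 6) 8.20 to 14.6, 6.92 to 8.68 and 10.0 to 10.8. The C and 24 h ranges of the sums overlapped in every list, narrowly for the endothelial one, and no marker was called in any comparison. The part of other cell types in the Ppargc1a result was not tested.

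The genes whose log2 levels over the 9 pools were most like 1460336_at of Ppargc1a, out of 26743 tested probesets with 1 gene name, were Adam17 (Pearson r = 0.98), Trpm7 (0.97), Scamp2 (0.94), Cdc5l (0.94) and Atp2b4 (0.94). For Ppargc1b 1449945_at they were Tnfaip2 (0.97), Osbpl7 (0.96), Frmd5 (0.95), Mup5 (0.95) and 2310010J17Rik (0.94). With 9 pools that share their arrays and so many probesets compared, these are descriptions only.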

How the data were processed

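RNA of 9 pools (C, 24 h and 10 D, 3 each) was hybridised to MOE430A and MOE430B arrays, and the authors quantified them with MAS 5.0. The deposited intensity values are linear signals per probeset, already background-corrected and summarised over probes. Where a label gives no chip, the table holding the array, that of MOE430A, settled it. Depth has no meaning for arrays, and their number, 3 per group, limits the precision.

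Each signal, set to at least 0.05 (18 values were 0), was put over the median signal of that array and log2-transformed. Probesets with a mean log2 signal that reached the 25th percentile on their chip entered the tests. Of 100 probesets on both chips, only 1 copy was kept. Gene names came from the GEO platform annotation (34945 probesets with 1 symbol, 932 with several and 9160 with none). Groups were fitted per chip with limma 3.58.1 in R 4.3.3 (trended eBayes), following the one-factor design of the study's methods, with Benjamini-Hochberg adjustment over both chips and calls under 0.1. The code was tested on simulated data. Single values also had an exact permutation test of F, which has no direction.

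The 9 genes and the lists were chosen with earlier results of these data known. Named were all members, and of the pathway lists the genes with an unadjusted p under 0.05 at 24 h. These were among the 4 genes of their list with the smallest F p, and not all of those 4 were named. Yy1 and Mef2c were named for the study's results. Marker lists were given by range, with some of their genes, and the 5 probesets most like Ppargc1a and Ppargc1b were named. The pairing of replicate numbers was checked and is given with the alternatives (scaling, offset, filter, variance model, array weights, replicate block, single pools left out, only the 2 groups compared). Without the pools numbered 2 of both treated groups is an alternative chosen after seeing the data.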

Additional observations from a re-analysis of the deposited data

How the results depend on the processing

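The 2 calls at 24 h were both kept with an offset of 0.25, a filter at the 50th percentile, robust eBayes, each chip adjusted alone and the replicate block. Array weights (3 calls) and only the 2 groups in the fit (3) kept both and added Esrrg 1455267_at, lower (adjusted p = 0.0901 and 0.0528). A single call, that of 1434100_x_at, remained with quantile normalization (1 call), 75th percentile scaling (1), 2% trimmed mean scaling (1) and no filter (1), and 0 with no intensity trend or with the methods' analysis of variance (0). The cause was not tested. Members called by the F test numbered 3 with array weights. Without the pools numbered 2 of both treated groups, an alternative chosen after seeing the data, members called numbered 2 by the F test and 1 between 10 D and 24 h. With 1 pool left out, members called ranged from 0 to 2 by the F test, 0 to 3 at 24 h and 0 to 1 between 10 D and 24 h.

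Over all probesets, the F test called 73, against 24 with no intensity trend, 31 with the analysis of variance, 816 with array weights, 347 without both pools numbered 2 and 7 to 243 with 1 pool left out. At 24 h it was 154, against 52, 100, 719, 599 and 24 to 432 in the same order, and 345 with only the 2 groups in the fit. Between 10 D and C it was 0, against 171 with array weights, 2 with each chip adjusted alone, 5 without both pools numbered 2 and 0 to 1 with 1 pool left out. Between 10 D and 24 h it was 17, against 40 with quantile normalization, 33 with the 75th percentile, 35 with the trimmed mean, 5 with no intensity trend, 331 with array weights, 110 without both pools numbered 2, 1 with only the 2 groups in the fit and 1 to 76 with 1 pool left out. The 24 h calls were split into 111 higher and 43 lower, and into 113 and 95 with quantile normalization. Array weights were estimated gene by gene, since the default estimate did not converge on MOE430A.

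Pools share replicate numbers across groups. Deviations of same-numbered pools correlated at -0.07 to 0.56 on MOE430A and -0.03 to 0.16 on MOE430B, so the numbers did not pair all 3 groups. Between 24 h and 10 D the numbers 1, 2 and 3 gave 0.39, 0.56 and 0.10 on MOE430A, each over 0.1, and 0.11, 0.16 and 0.01 on MOE430B, although 24 h pool 3 correlated better with 10 D pool 1 (0.33 and 0.08). With the replicate block, 2 members were called at 24 h, and 3 probesets over both chips were called between 10 D and C. Between 10 D and 24 h the block gave 0 members and 17 probesets, as without it. The block lost no call of a member.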

Other observations

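Probeset 1433981_s_at on MOE430B carries the name Ppargc1b in a table of the study but is given to Kat5, an acetyltransferase gene, by the platform annotation, so it was not counted above. It measured 3.07, 2.15 and 2.60 in C, 3.14, 5.11 and 3.81 in 24 h, and 2.53, 2.34 and 2.05 in 10 D. All 24 h pools were above all other pools. The log2 difference was 0.61 ± 0.25 at 24 h (adjusted p = 0.516) and -0.78 ± 0.25 from 24 h to 10 D (adjusted p = 0.670), and neither passed.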
